A study of Homo sapiens with 11 samples.

Results

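The E2F family of transcription factors was followed in human breast cancer xenografts from mice given evexomostat (SDX-7320) or its carrier. The family was taken by gene symbol: E2F1 to E2F8 and the dimer partners TFDP1 and TFDP2, 10 genes of the 28152 symbols in the count table. All 10 were found, and all 10 passed the filter on low counts. Their counts ranged from 111 to 9988 reads per library.

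E2F factors bind DNA at genes needed for the passage from G1 into S phase. E2F1, E2F2 and E2F3 activate such genes once cyclin-dependent kinases have released them from the retinoblastoma protein RB1. E2F4 and E2F5 repress them in resting cells together with the related pocket proteins, and E2F6 represses through Polycomb-type complexes without pocket proteins. E2F7 and E2F8 are atypical members that repress during S phase and need neither TFDP1 nor TFDP2. TFDP1 and TFDP2 encode the DP proteins with which E2F1 to E2F6 bind DNA as dimers. In breast cancer the pathway is known as the output of cyclin D and CDK4/6 signalling, which estrogen receptor and HER2 both feed.

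The tumours came from cells labelled BT-474, an established human breast cancer line, with HR+/Her2+ given as the genotype. Cells were placed in a mammary fat pad of female athymic nude mice, which lack mature T cells, and all animals carried an estradiol pellet of 0.72 mg made to release over 90 days. Tumours above 95 cubic millimetres could enter the study. Vehicle animals received mannitol in water and treated animals evexomostat at 12 mpk in the same carrier, under the skin every 4 days, and all tumours are labelled day 33. Evexomostat inhibits methionine aminopeptidase 2, the enzyme that takes the initiator methionine off new proteins. The vehicle group has 6 libraries and the evexomostat group 5. The labels do not state that each library came from a separate animal, so p-values measure the spread between libraries.

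Library totals ranged from 22808033 to 39249329 counts. Vehicle replicate 001 stood apart with the lowest TMM factor (the correction of a library's size for its composition), 0.860, against 0.956 to 1.08 in the other 10 libraries, so results are also given without it. The luminal and receptor markers were uneven. ESR1 had 1 to 17 counts per library and PGR 0 to 5. Of the 10 markers 4 averaged under 1 RPM (reads scaled to 1000000 per library): ESR1, PGR, CDH1 and KRT19. FOXA1 averaged 1.05 RPM, EPCAM 3.03, GATA3 6.50 and ERBB2 53.7 RPM, while KRT18 averaged 148.6 and KRT8 331.6 RPM. Summed markers of host fibroblasts ranged from 416.3 to 2081 RPM under vehicle and from 523.4 to 1153 RPM under evexomostat. Within this sum COL3A1 averaged 596 RPM and COL1A1 167.4 RPM, while DCN averaged 0.390 RPM and LUM 1.05 RPM. Endothelial markers reached at most 24.1 RPM and adipocyte markers 2.86 RPM, with ADIPOQ at 0 counts in every library, and myeloid and lymphoid markers lay between 71.1 and 121.7 RPM. Summed skeletal muscle markers ran from 2.59 to 11.1 RPM under vehicle, and under evexomostat they were at 339.1 RPM in replicate 005, 47.4 in 004, 18.6 in 003 and 3.52 RPM at the lowest. Of the 7 muscle markers, CKM, TNNT3 and MYLPF stayed low in every library, with at most 10, 10 and 7 counts. All 4 tested muscle genes had fold changes above 0 (median log2 fold change 3.67) with an unadjusted edgeR p under 0.05, and 0 passed adjustment. In bulk tumours, fewer cells of a type and less RNA per cell cannot be told apart.

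Several E2F genes are themselves E2F targets, so their promoters were searched for the E2F letters TTTCGCGC, TTTGGCGC, TTTCCCGC and TTTGCCGC on both strands. RefSeq promoter windows (GRCh38.p14, 250 bases before to 50 after a start) matched 8 of the 10 members, with 11 windows in all. Of those 8 members 4 held a match, in 4 of the 11 windows, against 3.31% of all 35116 windows. The windows of the 3 activators and of TFDP1 are shown from 150 bases before to 50 after the start, 5′ to 3′ on the gene's strand, with matches in capitals. They are E2F1 at chr20:33686336-33686535 (minus strand), E2F2 at chr1:23531184-23531383 (minus strand), E2F3 at chr6:20401729-20401928 (plus strand) and TFDP1 at chr13:113584603-113584802 (plus strand).
E2F1: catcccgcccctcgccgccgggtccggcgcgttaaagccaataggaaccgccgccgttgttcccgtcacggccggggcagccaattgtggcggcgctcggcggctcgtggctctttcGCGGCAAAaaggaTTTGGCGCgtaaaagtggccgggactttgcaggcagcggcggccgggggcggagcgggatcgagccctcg
E2F2: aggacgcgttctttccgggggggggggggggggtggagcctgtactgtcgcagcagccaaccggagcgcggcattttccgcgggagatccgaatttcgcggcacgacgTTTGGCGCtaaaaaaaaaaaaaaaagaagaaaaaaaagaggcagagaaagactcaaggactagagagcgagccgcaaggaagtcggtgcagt
E2F3: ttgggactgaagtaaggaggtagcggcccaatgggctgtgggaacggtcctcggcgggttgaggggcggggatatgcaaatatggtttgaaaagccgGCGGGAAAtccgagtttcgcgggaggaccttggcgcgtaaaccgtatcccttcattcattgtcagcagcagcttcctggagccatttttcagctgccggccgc
TFDP1: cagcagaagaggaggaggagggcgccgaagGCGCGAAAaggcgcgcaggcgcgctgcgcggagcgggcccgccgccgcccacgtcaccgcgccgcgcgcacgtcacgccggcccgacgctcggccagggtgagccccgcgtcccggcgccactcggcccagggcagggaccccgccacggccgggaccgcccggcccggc

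E2F1 had 2 matches, which begin 33 and 20 bases before the start, the first of them on the other strand. The E2F2 match begins 42 bases before the start, the E2F3 match 53 bases before it on the other strand, and the TFDP1 match 120 bases before it on the other strand. The second E2F3 window and the windows of E2F4, E2F6, E2F7 and TFDP2 held none of these letters. The E2F4 window is shown for contrast, at chr16:67192005-67192204 (plus strand), since E2F4 had the smallest p-value of the family.
E2F4: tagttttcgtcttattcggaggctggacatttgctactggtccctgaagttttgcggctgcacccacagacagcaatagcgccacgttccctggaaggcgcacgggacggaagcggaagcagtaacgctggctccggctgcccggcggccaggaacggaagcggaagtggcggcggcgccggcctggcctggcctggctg

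Levels of the members were compared as CPM, counts divided by the TMM-scaled library total and multiplied by 1000000, per kilobase of the longest coding transcript in GENCODE 29. TFDP1 was the most abundant, with a median of 84.4 over the 11 libraries and values from 74.7 to 114.0. E2F1 (median 35.0, from 25.7 to 52.6) and E2F4 (34.9, from 24.7 to 45.6) came next and were not separated, with E2F1 above E2F4 in 4 of 11 libraries. E2F6 followed at a median of 14.5 CPM per kilobase and E2F3 at 8.70, and each was above the next member in 11 of 11 libraries. E2F8 (5.46), E2F2 (5.09), E2F5 (3.98) and E2F7 (3.52) had overlapping ranges. TFDP2 was the lowest at 1.45, from 0.761 to 1.99, under E2F7 in 11 of 11 libraries. With the union of exons as length, E2F2 and E2F8 exchanged places and no other rank moved. The place of TFDP2 depends on its length, 9857 bases for the longest coding transcript and 379 for the shortest. Not divided by length, TFDP2 averaged 13.3 CPM and E2F5 7.26 CPM under vehicle, and 15.7 and 7.225 CPM under evexomostat. So the abundant part of the family was TFDP1 with E2F1 and E2F4, an activator and a repressor at similar level, and TFDP2 was the scarcer DP transcript in every library.

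**Figure D1:**
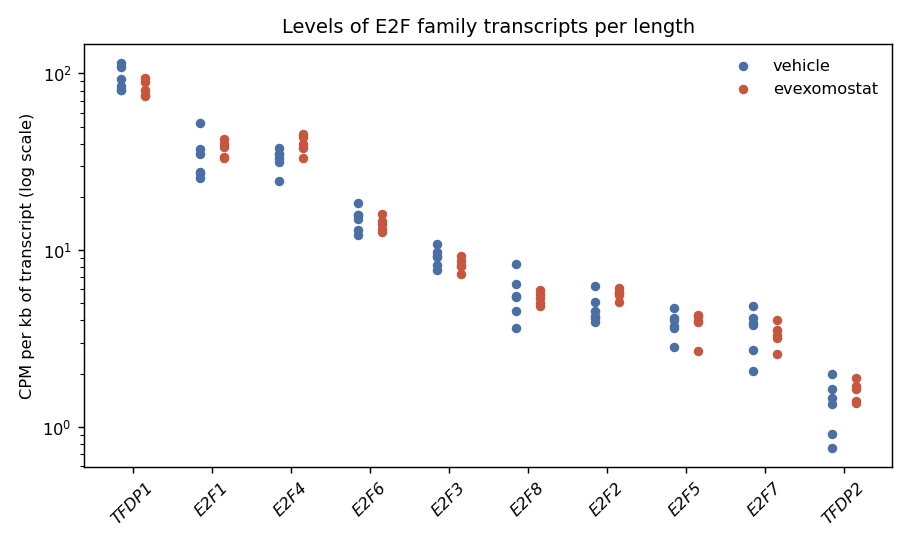
CPM per kilobase of transcript (log axis) for each member, with 1 point per library, vehicle in blue and evexomostat in red. TFDP1 lies between 74.7 and 114.0, E2F1 and E2F4 overlap around 35, and TFDP2 lies lowest.

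The comparison of treatment groups addressed which transcripts differ between tumours of evexomostat and vehicle animals. In edgeR's quasi-likelihood test 0 of the 10 members passed an adjusted p-value of 0.05, against 0.606% of all 16653 tested genes. At an unadjusted p under 0.05 there was 1 member, E2F4, where 13.4% of all tested genes lay under that value. Among the members 4 had a fold change above 0 and 6 below (44.6% of all tested genes were above), with a median log2 fold change of -0.04, and the median of all tested genes was also -0.04. The evexomostat and vehicle libraries overlapped in all 10 members, while they did not overlap in 2.97% of tested genes. DESeq2 also called 0 members (3.9% of all tested genes), with 1 member at an unadjusted p under 0.05 (15.3% of genes). Limma-voom with quality weights called 0 members too (6.36% of genes) and had 4 at an unadjusted p under 0.05, namely E2F1, E2F2, E2F4 and TFDP2 (24.7% of genes). The 95% intervals of the fold changes ran from 0.687-fold for E2F7 at the low end to 1.67-fold for TFDP2 at the high end. The E2F4 interval, 1.003-fold to 1.48-fold, was the one that left out 1. These intervals rest on the spread between libraries and were not adjusted for the number of genes.

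**Figure D2:**
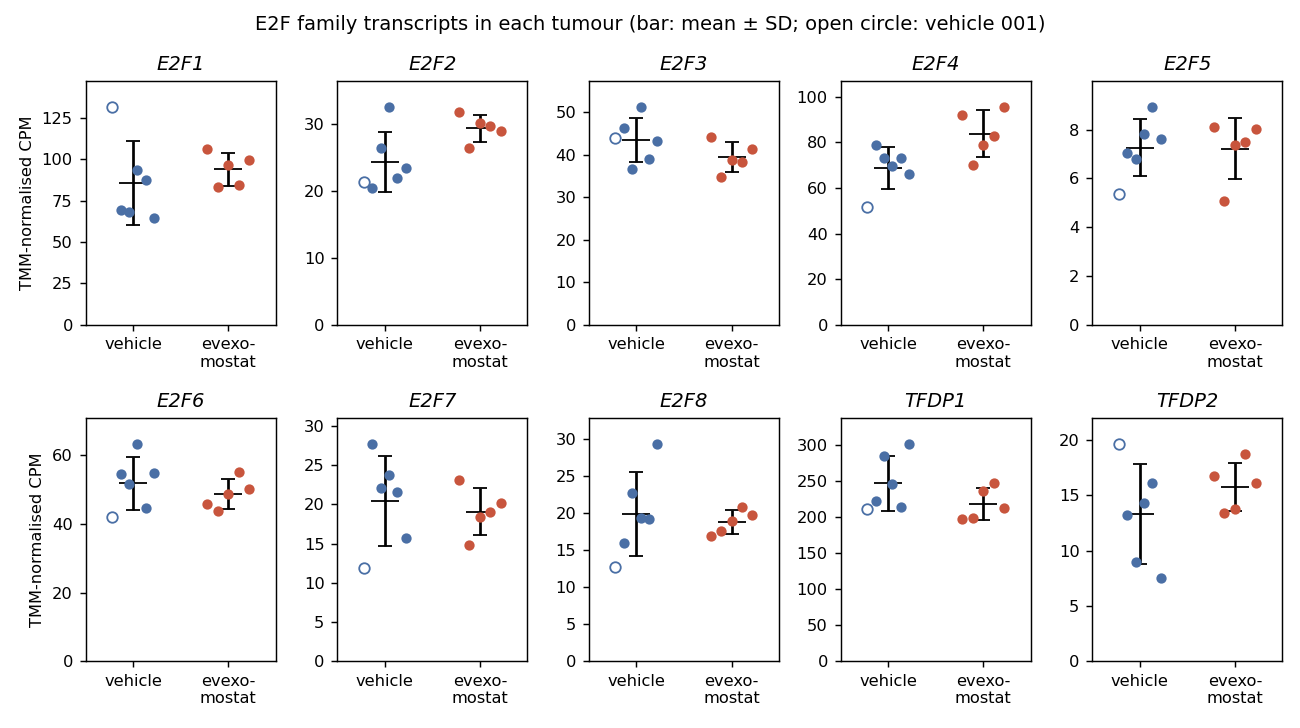
TMM-normalised CPM of each member, with 1 point per library, vehicle in blue and evexomostat in red, bars for the mean ± SD and an open circle for vehicle replicate 001. The groups overlap in all 10 panels, and vehicle replicate 001 is highest for E2F1 and TFDP2 and lowest for E2F4, E2F6, E2F7 and E2F8.

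Among the activators, E2F1, which can drive both S phase entry and apoptosis genes, was at 131.6 CPM in vehicle replicate 001, 69.3 in 003, 68.4 in 004, 93.3 in 005, 87.6 in 006 and 64.4 in 007. Under evexomostat E2F1 was at 106.1 CPM in replicate 002, 83.3 in 003, 96.5 in 004, 84.4 in 005 and 99.6 in 007. Vehicle replicate 001 was thus the highest of all libraries. Vehicle replicates 005 and 006 lay within the evexomostat range, and the other 3 lay below it. The means were 85.8 ± 25.3 CPM (SD, n = 6) and 94.0 ± 9.86 (SD, n = 5), and the log2 fold change was 0.13 (SE 0.18, edgeR adjusted p 0.821). With vehicle replicate 001 left out it was 0.30 (SE 0.12), at an unadjusted edgeR p of 0.0314 and an adjusted p of 0.161, and 0 members passed (5.22% of genes did). In that comparison E2F1 and E2F4 had an unadjusted p under 0.05, where 24.4% of 16565 tested genes had one.

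E2F2, also an activator held by RB1, was at 21.3, 20.4, 26.4, 32.5, 21.9 and 23.4 CPM in vehicle replicates 001, 003, 004, 005, 006 and 007. In evexomostat replicates 002, 003, 004, 005 and 007 E2F2 was at 31.8, 26.4, 30.2, 29.6 and 28.9 CPM. A single vehicle library, replicate 005, lay above all evexomostat libraries, and 4 vehicle libraries lay below all of them. The E2F2 log2 fold change was 0.27 (SE 0.14), with means of 24.3 ± 4.53 CPM (SD, n = 6) and 29.4 ± 1.99 (SD, n = 5) and an edgeR adjusted p of 0.423. Leaving out vehicle replicate 005 gave 0.38 at an adjusted p of 0.218.

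E2F3, the third activator, ranged from 36.7 to 51.2 CPM under vehicle, with its highest value in replicate 005, and from 34.8 to 44.1 CPM under evexomostat, with its lowest in replicate 003. Its log2 fold change was -0.14 (SE 0.12, edgeR adjusted p 0.681). The activators therefore did not share a direction, and none of the 3 passed the test.

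Among the repressors, E2F4, the main E2F of resting cells, was at 51.9, 78.8, 73.2, 69.9, 73.2 and 66.0 CPM in vehicle replicates 001, 003, 004, 005, 006 and 007. In evexomostat replicates 002, 003, 004, 005 and 007 E2F4 was at 91.9, 70.0, 78.9, 83.0 and 95.5 CPM. Thus 4 of 5 evexomostat libraries were above the highest vehicle library, and evexomostat replicate 003 lay inside the vehicle range. E2F4 averaged 68.8 ± 9.32 CPM (SD, n = 6) against 83.9 ± 10.2 (SD, n = 5), and its log2 fold change was 0.29 (SE 0.13, 95% interval 0.0037 to 0.57). Its unadjusted edgeR p was 0.0474 and its adjusted p 0.365, at rank 2165 of 16653 genes. When its lowest library, vehicle replicate 001, was left out, the log2 fold change was 0.22 (adjusted p 0.196), and without evexomostat replicate 003 the adjusted p was 0.314.

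E2F5, which represses alongside E2F4 in resting cells, was the least counted member, at 5.38 to 8.93 CPM under vehicle and 5.06 to 8.13 CPM under evexomostat. The low end of each E2F5 range was a single library, vehicle replicate 001 and evexomostat replicate 003, and the log2 fold change was -0.01 (SE 0.18, edgeR adjusted p 0.992). E2F6, which works in a Polycomb-type complex, ranged from 42.0 to 63.4 CPM under vehicle and from 43.7 to 55.3 CPM under evexomostat. The log2 fold change was -0.09 for E2F6 (SE 0.13, edgeR adjusted p 0.827). The evexomostat range of E2F6 lay wholly within its vehicle range.

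The atypical members had a wide vehicle spread. E2F7 was at 11.9, 27.7, 22.1, 23.8, 21.6 and 15.7 CPM in vehicle replicates 001, 003, 004, 005, 006 and 007, and between 14.8 and 23.1 CPM under evexomostat. E2F8 was at 12.8, 15.97, 22.7, 19.3, 19.2 and 29.4 CPM in the same vehicle libraries, and between 16.9 and 20.9 CPM under evexomostat. Both genes had their lowest level in vehicle replicate 001, but vehicle replicate 007 was the highest for E2F8 and the second lowest vehicle library for E2F7. Their log2 fold changes were -0.10 (SE 0.20) and -0.08 (SE 0.19), with edgeR adjusted p-values of 0.891 and 0.907.

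The dimer partners went in opposite directions without passing the test. TFDP1 was at 212.2, 223.5, 286.0, 246.6, 214.0 and 302.3 CPM in vehicle replicates 001, 003, 004, 005, 006 and 007. In evexomostat replicates 002, 003, 004, 005 and 007 TFDP1 was at 197.7, 198.8, 236.8, 248.0 and 212.8 CPM. The 2 highest TFDP1 libraries were vehicle replicates 007 and 004 and the 2 lowest were evexomostat replicates 002 and 003. Its log2 fold change was -0.18 (SE 0.14, edgeR adjusted p 0.639).

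TFDP2 was at 19.6, 13.2, 8.99, 14.3, 16.1 and 7.50 CPM in vehicle replicates 001, 003, 004, 005, 006 and 007, and at 16.7, 13.4, 13.8, 18.7 and 16.1 CPM in evexomostat replicates 002, 003, 004, 005 and 007. The low TFDP2 libraries were vehicle replicates 004 and 007, the same ones that were high in TFDP1. The TFDP2 log2 fold change was 0.25 (SE 0.23, edgeR adjusted p 0.714), and without vehicle replicate 001 it was 0.39 (SE 0.20, adjusted p 0.260). Evexomostat replicate 005, highest in TFDP2 within its group, was also the library with 339.1 RPM of skeletal muscle markers, whose part in this value was not tested.

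**Figure D3:**
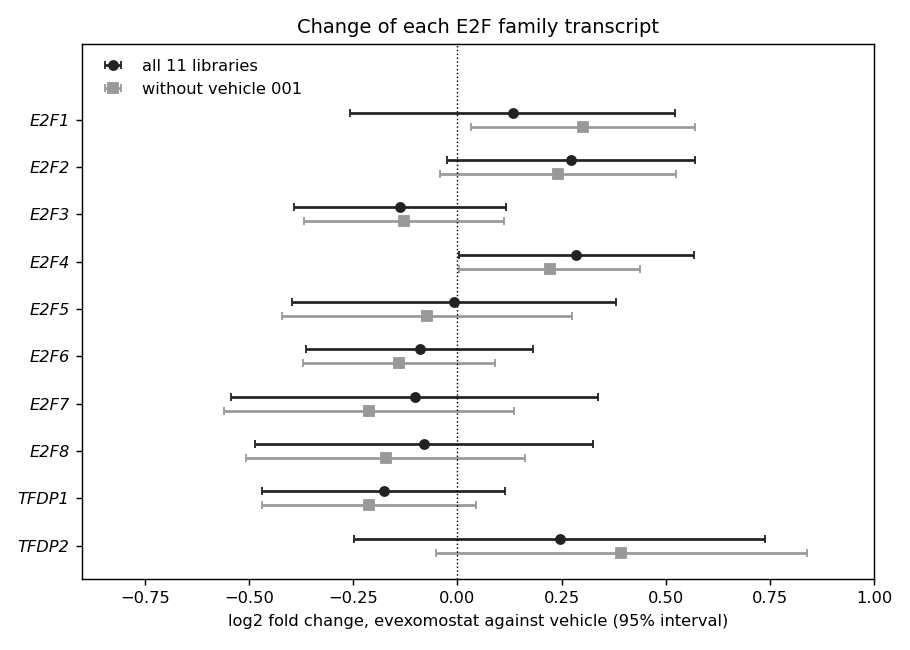
Log2 fold change of each member, evexomostat against vehicle, with 95% intervals from edgeR for all 11 libraries (black circles) and without vehicle replicate 001 (grey squares). Only the E2F4 interval excludes 0 with all libraries, and those of E2F1 and E2F4 do without vehicle replicate 001, before any adjustment.

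The authors' deposited table also lists no member under an adjusted p-value of 0.05. Its smallest p-value in the family is that of E2F4 at 0.0449, with an adjusted value of 0.566 in the authors' deposited table. In the authors' deposited table the log2 fold changes of E2F5 (0.07) and E2F8 (0.007) have the opposite sign to those of the comparison above, and the other 8 have the same sign. Every member's log2 fold change was higher there, such as 0.24 against 0.13 for E2F1 and -0.0003 against -0.09 for E2F6. The group means there are in RPM, while the comparison above used TMM scaling. The part of scaling in this shift was not tested.

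The coefficient of variation of CPM (SD over mean) was lower under evexomostat in 9 of 10 members, and in 80.8% of all tested genes. It was 28.8% under vehicle and 8.54% under evexomostat for E2F8, 29.5% and 10.5% for E2F1, and was higher under evexomostat for E2F5 alone (16.3% against 17.3%). Without vehicle replicate 001 it was lower under evexomostat in 8 of 10 members and in 62.9% of tested genes. A smaller spread under evexomostat was therefore a property of most tested genes, and the difference in spread was not tested.

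Within single libraries, the balance of members shifted from tumour to tumour. CPM of E2F1 per CPM of E2F8 was 10.3 in vehicle replicate 001, 2.19 in vehicle replicate 007 and 3.02 to 4.83 in the other vehicle libraries, against 4.04 to 6.26 under evexomostat. TFDP1 per TFDP2 was 40.3 in vehicle replicate 007 and 31.8 in vehicle replicate 004, against 10.8 to 17.2 in the other 9 libraries. These ratios overlapped between the groups.

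Across the 11 libraries, log2 CPM was correlated for all 45 pairs of members, with permutation tests of 100000 resamples, two-sided, and Benjamini-Hochberg adjustment over the 45. The count past an adjusted p of 0.05 was 0 by Pearson's r and by Spearman's rho, while 9 and 5 pairs had an unadjusted p under 0.05. E2F1 and TFDP2 were the closest pair, with a Pearson r of 0.801 (permutation p 0.00244, adjusted 0.0736) and a Spearman rho of 0.827 (permutation p 0.00283, adjusted 0.127). Without the 2 libraries farthest from the median of E2F1, vehicle replicates 001 and 007, r was 0.660 (permutation p 0.0503). E2F8 and TFDP1 followed, with an r of 0.778 (permutation p 0.00327, adjusted 0.0736) and a rho of 0.773 (permutation p 0.00754, adjusted 0.130), and without vehicle replicates 001 and 007 r was 0.743 (permutation p 0.0222). With vehicle replicate 001 alone left out, E2F8 and TFDP1 had an r of 0.845 (adjusted permutation p 0.0477), the 1 pair to pass in that setting.

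Between these couples each r over all libraries was below 0, and none passed adjustment. E2F1 and TFDP1 had an r of -0.649 (permutation p 0.0301, adjusted 0.172) and a rho of -0.664 (permutation p 0.0308, adjusted 0.346). Without vehicle replicates 001 and 007 their r was -0.517. E2F8 and TFDP2 had an r of -0.741 (permutation p 0.00908, adjusted 0.102) and a rho of -0.382 (permutation p 0.247, adjusted 0.707). Without the same libraries their r was -0.272. TFDP1 and TFDP2 had an r of -0.757 (permutation p 0.00901, adjusted 0.102) and a rho of -0.518 (permutation p 0.108, adjusted 0.671), but r was -0.02 without vehicle replicates 004 and 007, so the relation rested on those libraries. E2F1 and E2F8 had an r of -0.709 (permutation p 0.0157, adjusted 0.141) and a rho of -0.545 (permutation p 0.0882, adjusted 0.662), which became -0.146 without vehicle replicates 001 and 007 and so rested on them. When each value was taken as its deviation from the mean of its own group, with permutation within groups, 2 pairs passed: E2F4 with E2F7 (r 0.912, adjusted p 0.0180) and E2F8 with TFDP1 (r 0.837, adjusted p 0.0472). Over all libraries E2F4 and E2F7 had an r of 0.649 (permutation p 0.0301, adjusted 0.172) and a rho of 0.373 (permutation p 0.261, adjusted 0.707), and r was 0.328 without vehicle replicate 001. All libraries share 1 scaling step, which enters each of these correlations.

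**Figure D4:**
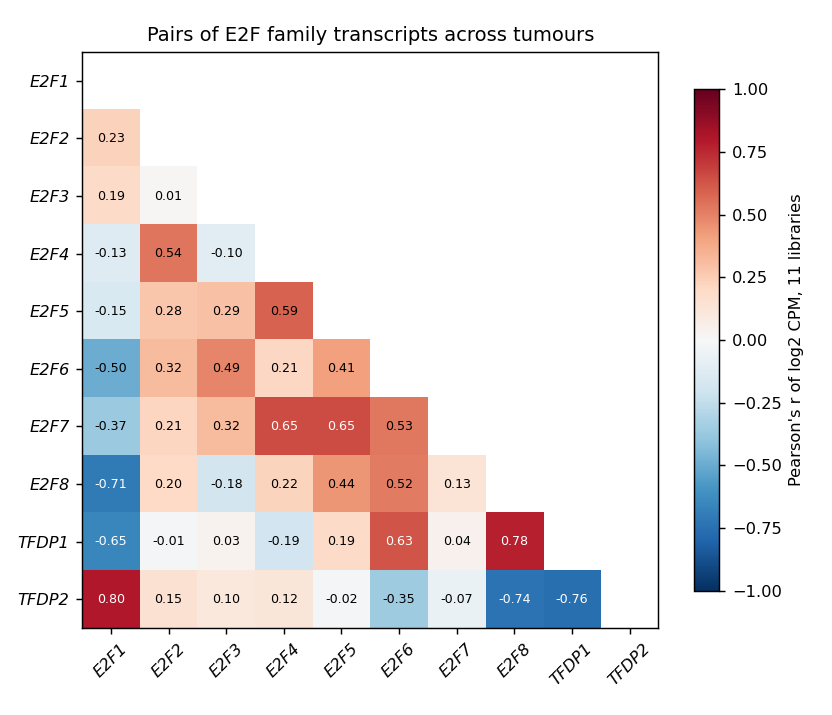
Pearson's r of log2 CPM for each of the 45 pairs of members across the 11 libraries, red for positive and blue for negative values. The strongest values are 0.80 for E2F1 with TFDP2, 0.78 for E2F8 with TFDP1 and -0.76 for TFDP1 with TFDP2, and 0 pairs passed the adjusted threshold.

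The members were also compared with dividing activity, read as the mean log2 CPM of 20 G2/M genes such as MKI67, TOP2A and CDK1, none of them a member. This score ran from 6.45 in vehicle replicate 006 to 7.10 in evexomostat replicate 002. Over the 11 libraries 0 of 10 members passed an adjusted p of 0.05 by Pearson's r or Spearman's rho, with E2F2 the 1 member at an unadjusted p under 0.05, by rho. The highest r was that of E2F3 at 0.549 (permutation p 0.0819, adjusted 0.588; rho 0.445, permutation p 0.173, adjusted 0.433), which became 0.316 without the 2 libraries farthest from the median, vehicle replicate 006 and evexomostat replicate 003. E2F2 followed at 0.505 (permutation p 0.118, adjusted 0.588), with a rho of 0.655 (permutation p 0.0337, adjusted 0.213) and an r of 0.544 without those libraries. E2F8 (-0.115) and TFDP1 (0.0089) had the values nearest 0, with permutation p-values of 0.724 and 0.981. As deviations from the group means E2F3 reached an r of 0.805 (permutation p 0.00329, adjusted 0.0329).

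By Pearson's r of log2 CPM over the 11 libraries, the 3 nearest of all tested genes were taken for each member, and up to 3 of them are named, as a description. E2F1 was nearest to the ribosomal protein gene RPL10 (0.947), DTD1 and ARPC5L, and E2F7 to GSK3B (0.987), ARHGAP21 and TRIM32. E2F4 was nearest to LOC101927911 (0.960), DHX38 and LAS1L, E2F8 to FAM156B (0.963), LLPH-DT and PROB1, and E2F2 to NGEF (0.926), BEND3 and PYGB. E2F3 was nearest to the sterol synthesis gene CYP51A1 (0.928) and SSR1, E2F5 to DEXI (0.941), SLC39A9 and ARFIP2, and E2F6 to DAG1 (0.910), LOC339666 and TOLLIP. IKZF1 (0.912) and MGC12916 were among those nearest to TFDP1, and TFDP2 was nearest to BEX1 (0.935), FUOM and SERTAD4-AS1. No member was among the 3 nearest genes of another member. With 3 picked from 16653 tested genes, this does not show whether members vary together.

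Around the family, 8 lists of partners, regulators and targets held 100 tested genes. In edgeR 1 of the 100 passed the threshold, CCND2, against 0.606% of all tested genes, and the groups did not overlap in 2 of the 100, MYBL1 and CCND3, against 2.97%. Leaving out vehicle replicate 001, 5 of the 100 passed (CCND2, MYBL1, POLA2 and HDAC2 higher and RYBP lower), against 5.22% of 16565 genes. DESeq2 called 4 of the 100 (3.9% of all genes), namely CCND2, MYBL1, UHRF1 and RYBP. These shares of called genes were near those of all tested genes. Limma-voom with quality weights called 11 of the 100, against 6.36% of all genes, and the difference between those shares was not tested.

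The pocket proteins that hold E2Fs inactive gave 0 calls of 3 in edgeR, DESeq2 and limma-voom. Of all tested genes 0.606%, 3.9% and 6.36% were called. At an unadjusted p under 0.05 there were also 0 (13.4% of all genes in edgeR). All 3 fold changes were below 0, where 44.6% of all tested genes were above. RBL2, the partner of E2F4 in resting cells, was at 63.8 ± 19.5 CPM (SD, n = 6) against 53.5 ± 6.25 (SD, n = 5), with a log2 fold change of -0.25 (edgeR adjusted p 0.671), and RB1 was at -0.16 (adjusted p 0.718).

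Of the 15 tested G1 cyclins, kinases and inhibitors, 1 was called (0.606% of all tested genes were), and their median log2 fold change was -0.07, which turned to 0.04 without vehicle replicate 001. CCND2, a D-type cyclin that activates CDK4 and CDK6, was at 4.27, 0.852, 1.55, 1.94, 3.00 and 0.809 CPM in vehicle replicates 001, 003, 004, 005, 006 and 007. In evexomostat replicates 002, 003, 004, 005 and 007 CCND2 was at 12.7, 9.96, 6.45, 14.3 and 4.14 CPM, so the groups touched only where vehicle replicate 001 was just above evexomostat replicate 007. CCND2 rose (log2 fold change 2.21, SE 0.45, edgeR adjusted p 0.0469), and it lost significance when any one library other than vehicle replicate 001 was left out, with log2 fold changes of 2.02 to 2.40 and adjusted p-values of 0.0580 to 0.134. Without that library it was 2.55 (adjusted p 0.0104). Its highest library, evexomostat replicate 005, was again the one with the highest sum of skeletal muscle markers, whose part was not tested. CCND1 had a log2 fold change of 0.30 (edgeR adjusted p 0.577), the kinase inhibitor CDKN1A of -0.46 (adjusted p 0.399) and CCND3 of -0.21 (adjusted p 0.412).

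The MuvB core binds with E2F4 and pocket proteins in resting cells and with B-MYB and FOXM1 later in the cycle. Of the 8 genes of the core and its partners edgeR called 0, with 2 at an unadjusted p under 0.05. Over all tested genes these shares were 0.606% and 13.4%. DESeq2 and limma-voom called 1 each, MYBL1, against 3.9% and 6.36% of all tested genes. MYBL1, a relative of B-MYB, was at 24.2 to 42.7 CPM under vehicle and at 44.2 to 94.4 CPM under evexomostat, without overlap, and its log2 fold change was 0.87 (SE 0.19, edgeR adjusted p 0.0604). Less vehicle replicate 001 it was 0.89 (adjusted p 0.0285), and without evexomostat replicate 003 it was 0.99 (adjusted p 0.0472). Leaving out any one of the other 9 libraries gave adjusted p-values of 0.0634 to 0.178. On the 8 libraries whose numbers occur in both groups MYBL1 was at 0.78 with the replicate block (adjusted p 0.118) and 0.78 without it (adjusted p 0.0384). DESeq2 and limma-voom with quality weights gave adjusted p-values of 0.00248 and 0.00944 for MYBL1. LIN9 was at -0.40 (edgeR adjusted p 0.287), LIN54 at -0.15 (adjusted p 0.662), LIN37 at 0.19 (adjusted p 0.657), MYBL2 at 0.12 and FOXM1 at 0.02 on the log2 scale, the last turning to -0.07 without vehicle replicate 001.

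The E2F6 complex had 11 of its 12 genes tested, since RING1 had 0 counts in every library. EdgeR called 0 (0.606% of all tested genes), with 2 at an unadjusted p under 0.05 (13.4%). RYBP, a Polycomb subunit, was at 65.1 ± 12.0 CPM (SD, n = 6) against 44.8 ± 3.59 (SD, n = 5), with a log2 fold change of -0.54 (edgeR adjusted p 0.111), and it fell by 0.61 without vehicle replicate 001 (adjusted p 0.0117). RYBP also passed with DESeq2 (adjusted p 0.0164) and limma-voom (adjusted p 0.00707). HDAC2, named after its value was seen, was at 0.28 (adjusted p 0.569) and rose by 0.49 without that library (adjusted p 0.0202) and with limma-voom (adjusted p 0.0111). L3MBTL2 was at 0.28 (adjusted p 0.358), WDR5 at 0.25 (adjusted p 0.464) and YAF2 at -0.39 (adjusted p 0.659), which became 0.04 without vehicle replicate 001. Genes that act in E2F turnover gave 0 calls of 3 with each tool, and 0 at an unadjusted p under 0.05. Over all tested genes the shares called were 0.606% in edgeR, 3.9% in DESeq2 and 6.36% in limma-voom. The shares at an unadjusted p under 0.05 were 13.4%, 15.3% and 24.7%. CCNF was at 0.14 and FZR1 at 0.08.

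The G1/S targets are genes of replication licensing and nucleotide supply that E2Fs are known to activate. They gave 0 calls among 32 in edgeR (0.606% of all tested genes), with 3 at an unadjusted p under 0.05 (13.4%). Of the 32, 20 had a fold change above 0, with a median of 0.02, where 44.6% of all tested genes were above 0. Setting aside vehicle replicate 001, 28 of 32 were above 0 with a median of 0.14, against 49.6% and a median of -0.00245 over all genes. In that setting 8 had an unadjusted p under 0.05 (24.4% of all genes), and 1 was called (5.22%). That gene was POLA2, a subunit of DNA polymerase alpha, at 30.1 ± 4.89 CPM (SD, n = 6) and 37.1 ± 1.88 (SD, n = 5), with a log2 fold change of 0.30 over all libraries (edgeR adjusted p 0.304) and 0.40 without vehicle replicate 001 (adjusted p 0.0223). UHRF1, which helps maintain DNA methylation at replication, was at 0.57 (adjusted p 0.128), RRM1 at -0.27 (adjusted p 0.537) and CHAF1B at -0.14 (adjusted p 0.675). DESeq2 called 1 of the 32, UHRF1 (0.57, adjusted p 0.0375), against 3.9% of all tested genes. Limma-voom with quality weights called 5 of the 32 (6.36% of all tested genes) and had 12 at an unadjusted p under 0.05 (24.7% of all). The 5 were all higher: UHRF1 at 0.56 (adjusted p 0.0313), POLA2 at 0.37 (adjusted p 0.0222), MCM10 at 0.52 (adjusted p 0.0375), CDC45 at 0.52 (adjusted p 0.0410) and RFC4 at 0.33 (adjusted p 0.0448). The last 3 of these, genes of replication origin firing and clamp loading, were named after their values were seen.

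The G2/M genes gave 0 calls among 20 in edgeR and DESeq2, against 0.606% and 3.9% of all tested genes. Each tool had 1 of the 20 at an unadjusted p under 0.05. Of all tested genes 13.4% and 15.3% lay under that value. In edgeR 16 were above 0 with a median of 0.08, where 44.6% of all tested genes were above 0. Limma-voom called 2, against 6.36% of all tested genes, with 6 at an unadjusted p under 0.05 against 24.7%. They were CDC20 (0.60, adjusted p 0.0162) and CCNB1 (0.40, adjusted p 0.0479). CDC20, an activator of the anaphase-promoting complex, was at 0.51 in edgeR (adjusted p 0.159), AURKB at 0.22 (adjusted p 0.537), TOP2A at -0.08 and CCNB2 at -0.06. The last 2 changed sign without vehicle replicate 001, to 0.10 and 0.02. Of the 8 E2F1 apoptosis targets each tool called 0, against 0.606% (edgeR), 3.9% (DESeq2) and 6.36% (limma-voom) of all tested genes. At an unadjusted p under 0.05 there were 0 in edgeR and DESeq2 (13.4% and 15.3% of all genes). Limma-voom had 2 (24.7%), and edgeR without vehicle replicate 001 had 1 (24.4%). In edgeR 7 lay below 0, with a median of -0.16, where 44.6% of all tested genes lay above 0. BCL2L11, which encodes the death promoter BIM, was at -0.32 (edgeR adjusted p 0.572). TFDP3, a close paralog of TFDP1, had 0 counts in every library.

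**Figure D5:**
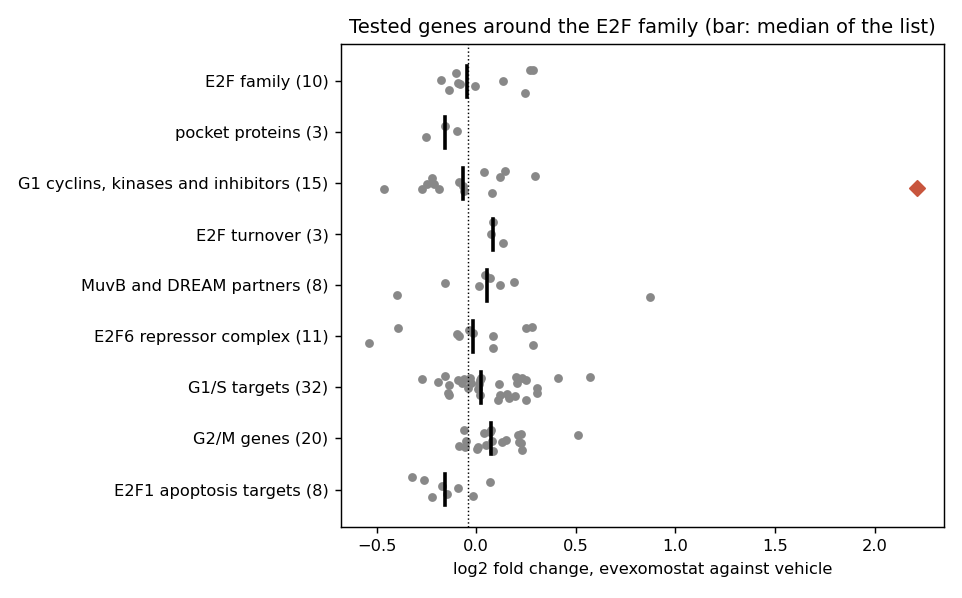
Log2 fold change of each tested gene, evexomostat against vehicle, for the E2F family and the 8 lists around it, with the number of tested genes in brackets, a black bar at each list's median and a dotted line at the median of all tested genes. The single red diamond is CCND2 at 2.21, the 1 gene past the adjusted threshold.

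The E2F letters shown in the promoters above were in 15 of the 28 G1/S targets that had a window, among them MCM2, CDC6, PCNA, TYMS, POLA2 and UHRF1, and in 2 of 16 G2/M genes. Among all tested genes with a window, 767 of 12326 held a match. Of 767 tested genes with a match 3 were called (0.391%), against 0.608% of the 12326 tested genes with a window. Their median log2 fold changes were -0.02 and -0.04. After vehicle replicate 001 was left out, the medians were 0.02 and -0.00274, with 5.62% and 5.40% called.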

How the data were processed

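Per the labels' protocols, total RNA from tumour pieces was sequenced as paired-end reads. Per the submitters' processing notes, STAR 2.7.5c, featureCounts, edgeR and the build GRCh37 (hg19) were used. The library kit named in the labels does not mark strand. The annotation and how mouse reads were handled are not given in the sources used here, so reads from pseudogenes (E2F3, E2F4, E2F6 and TFDP1 have some), overlapping or antisense genes, or mouse genes, may be included. The deposited count table holds raw read counts, and the authors' RPM table scales each column's counts to a total of 1000000. The authors' comparison table gives a log2 fold change, p-values and group means, per the file headers. Its standard deviations were not used.

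Genes were kept with filterByExpr (minimum count 10, total 15), 16653 of 28152. Counts were compared with edgeR 4.0.16 in R 4.3.3 (TMM, quasi-likelihood test, Benjamini-Hochberg over all tested genes, threshold 0.05). The tests were checked on simulated data, with 200 genes changed by 2 on the log2 scale, up or down, for the comparison of counts. Changes as small as those of the members were not simulated. CPM are TMM-scaled, and log2 CPM used a prior count of 2. At these depths 3 counts equal 0.0764 to 0.132 RPM, for counting error only. The closest of 55 library pairs differed by a chi-square of 16.4 per degree of freedom. Alternatives were relative log expression scaling, DESeq2 1.42.0, limma 3.58.1 voom with quality weights, no count filter, a replicate block and leaving out each library. Named genes were all members, in each list the called genes and up to 2 with the smallest p in each direction, and the 3 nearest genes by correlation. CCND2 and MYBL1 per library, the pairs of members and the ratios were chosen after values were seen. The members and lists were chosen with earlier results of these data known. Promoter coordinates are RefSeq's, not those of the counting. Promoters of E2F5 and E2F8 were not used here. A few genes that the naming rule selects are not reported here.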

Additional observations from a re-analysis of the deposited data

Results flagged for a closer look

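The E2F5 level in evexomostat replicate 003 was 5.06 CPM, against 7.39 to 8.13 CPM in the other 4 evexomostat libraries, a gap of 0.759 of the group's range. It was the one value that stood apart from its group among 22 groups of values examined (10 members and the G2/M score in both treatment groups), where about 1.1 would by chance. This library also had the lowest G2/M score of its group, 6.54 against 6.94 to 7.10, and the lowest total count of all libraries, 22808033. Without it the E2F5 log2 fold change was 0.10 (edgeR adjusted p 0.882). The part of depth or dividing activity in the value was not tested.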

How the results depend on the processing

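The count of members past the threshold was 0 in all 17 alternatives. For each change given here the cause was not tested. Over all genes, 101 passed (29 higher, 72 lower), with DESeq2 649 (200 higher, 449 lower), with quality weights 1059 (384 higher, 675 lower), and over the leave-one-out comparisons 1 to 865 (1 to 328 higher, 0 to 537 lower, the 0 without evexomostat replicate 005, where edgeR had 1169 lower at an unadjusted p under 0.05, and the 865 without vehicle replicate 001).

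Fold changes reversed in 3 members, none past the threshold. E2F5 was at 0.005188 with quality weights, and leaving out 1 library gave -0.0735 to 0.0957 for E2F5, -0.212 to 0.003681 for E2F7 and -0.172 to 0.0634 for E2F8. The other 7 members kept their direction in every alternative.

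With the G2/M score, r of E2F6 was -0.168 and of TFDP1 -0.769 (adjusted permutation p 0.150) without the 2 libraries farthest from the median, and E2F3 was at 0.805 as deviations. Leave-one-out ranges of r were 0.211 to 0.421 (E2F1), 0.382 to 0.648 (E2F2), 0.394 to 0.612 (E2F3), 0.240 to 0.611 (E2F4), -0.151 to 0.759 (E2F5), 0.214 to 0.543 (E2F6), 0.0352 to 0.417 (E2F7), -0.206 to -0.0355 (E2F8), -0.217 to 0.225 (TFDP1) and 0.146 to 0.450 (TFDP2).

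The groups share the replicate numbers 003, 004, 005 and 007. Libraries with the same number had deviations from their group means that correlated at -0.272, 0.0664, 0.0489 and -0.0998, and 1 of 8 was closest to its own number. With so few shared numbers this cannot settle whether such libraries share more than a number. The replicate block on those 8 libraries gave 107 genes and the same 8 without the block 733 (225 higher, 508 lower). The members had at least 111 counts per library.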
